A study of Dascyllus aruanus with 17 samples.

Results

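Whole-brain messenger RNA was compared between night and day in control fish of the damselfish Dascyllus aruanus, a small coral reef fish that lives in colonies. The comparison set the 4 control night brains, sampled at zeitgeber time (ZT) 23, against the 3 control day brains, sampled at ZT11. Both groups were chosen by the sample labels. They are 7 of the 14 libraries of the count table and of the 17 samples of the series. The whole study used wild fish from 6 colonies, and how many of these the control fish came from is not given. The control fish were habituated for 96 h and then kept for 72 h under natural daylight and natural darkness. ZT11 fell 1 h before sunset and ZT23 1 h before sunrise, so the day brains came from late in the light and the night brains from late in the dark. Each library held 1 brain. The other 7 libraries came from fish given dim white light through the dark hours for 3 nights (artificial light at night, ALAN), sampled at the same times (3 by day, 4 at night). They entered the statistical fit and are given here as a second set of values. Per the labels, lighting was applied to colonies. The sources used here do not tell which colony a fish came from, nor its age or sex, so colony and time of day cannot be told apart. With 2 sampling times the phase of a daily rhythm was not measured.

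The vertebrate clock is a feedback loop of transcription factors. CLOCK (or its relative NPAS2) pairs with BMAL proteins, encoded by the ARNTL genes, to switch on PER, CRY, DEC and REV-ERB genes, whose products then shut the loop down. REV-ERB and ROR nuclear receptors compete on the promoters of BMAL and CLOCK genes, and the PAR bZIP factors DBP, TEF and HLF pass the rhythm on to output genes against the repressor NFIL3. In fish, many tissues hold their own clock and their own opsins, and light itself can act on clock genes there. Neuronal firing switches on another set, the immediate-early genes such as FOS, EGR and NPAS4, so their messenger RNA follows how active the brain has recently been.

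The table gives estimated read counts for 21805 features, the genes of a transcriptome assembled without a genome. A low-count filter left 20782 and removed 1023. A gene name here is the name of the best orthologue match in the authors' deposited annotation. Features without a name are given by description and by the DN number of their assembly identifier, called the component here. Unrelated genes can share a DN number, as CRH and CPLX1 do (DN4392), so a shared number need not mean divided reads. Several features can carry the same name. Totals ran from 14942952 to 17862362 expected counts by day and from 18050154 to 23051193 at night. Levels are in CPM, expected counts scaled to a common library total, and are listed in the order control day replicates 1, 2 and 4, then control night replicates 1 to 4. Across features (log2 CPM), Pearson's r was 0.918 to 0.939 for 2 libraries of 1 control group and 0.905 to 0.929 for a day and a night library. Marker genes of tissues other than brain were higher in some libraries than in others, and the source of these messages was not tested. Photoreceptor markers were high in control night replicate 4 and, less so, in control night replicate 2 and control day replicate 1. Pituitary markers were high in control night replicate 4, blood markers in control day replicate 1 and control night replicate 4, muscle markers in control day replicates 1 and 4, and liver and plasma markers in control day replicate 2. The sums for these lists are given with the cell type markers below. In whole brain, fewer cells of a type and less RNA per cell cannot be told apart.

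Under natural light, 430 of the 20782 features differed between night and day by edgeR's quasi-likelihood test at an adjusted p under 0.05 (called hereafter), which is 2.07% of the features tested. Of these, 222 (1.07%) were higher and 208 (1.00%) lower at night. At an unadjusted p under 0.05, 1572 features (7.56%) were higher and 1459 (7.02%) lower. The groups did not overlap, every night brain lying on 1 side of every day brain, for 1370 features (6.59%) that were higher at night and 1424 (6.85%) that were lower. The log2 ratio used below is the fitted log2 of the night level over the day level, positive where night was higher, and its median over all tested features was 0.01. Among the called features the median absolute log2 ratio was 1.19, and it was larger for those higher at night (1.38) than for those lower at night (0.99). An absolute log2 ratio over 3 was found for 43, of which 28 were lower at night. The called features were mostly of moderate level: 75 of 430 reached a mean of 100 CPM in either group, and together they took 2.98% of the reads by day and 2.88% at night. Groups overlapped for 4 of the 430, all lower at night. These 4, chosen after their values were seen, each rest on 1 day brain. DN1482 was at 1, 367 and 1.29 CPM by day and 2.66, 0.751, 0.7 and 0.684 CPM at night, DN54499 at 1.51, 77.3 and 0.877 CPM and 0.404, 0.601, 1.49 and 0.599 CPM, and DN312 at 2.65, 34.2 and 1.29 CPM and 1.33, 0.601, 0.933 and 0.727 CPM, so that control day replicate 2 alone was high in all 3. DN28970 was at 13.2, 0.597 and 2.05 CPM by day and 0.231, 0.35, 0.653 and 0.0428 CPM at night, high in control day replicate 1. Of the 4 only DN54499 has a name, CYP24A1, the enzyme that inactivates vitamin D. Without day replicate 2 the log2 ratio of DN1482 was 0.04 (edgeR adjusted p 0.988), and its call was also lost without night replicate 1, 2, 3 or 4 (adjusted p up to 0.131). CYP24A1 lost its call without day replicate 2, or night replicate 1, 2, 3 or 4 (adjusted p up to 0.698), DN312 without day replicate 2, or night replicate 1, 2, 3 or 4 (adjusted p up to 0.351) and DN28970 without day replicate 1 or 4, or night replicate 1, 2, 3 or 4 (adjusted p up to 0.388).

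**Figure D1:**
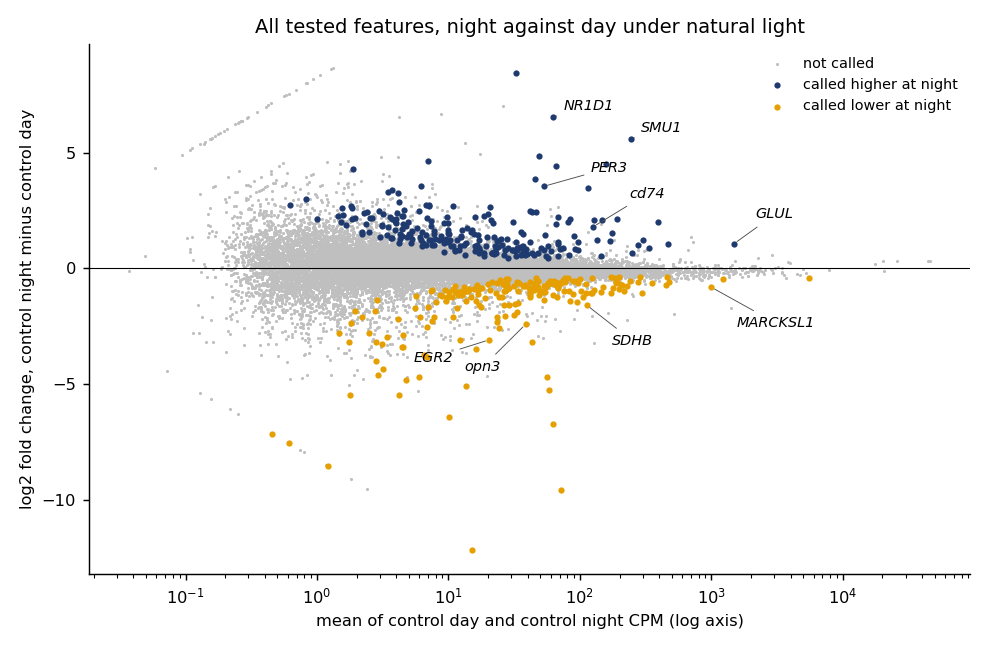
Each point is 1 of the 20782 tested features, placed by the mean of the control day and control night CPM (log axis) and by the log2 ratio of control night over control day. The 222 features called higher at night are blue and the 208 called lower are orange; SMU1, NR1D1 and PER3 are among those that rose and EGR2 and opn3 among those that fell. Fold changes of features at or near 0 in a group depend on the fit's small added count.

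Genes that shut the clock loop down were high at the end of the night. Of the 12 clock repressors tested, 6 rose and 1 fell (median log2 ratio 2.06), against 1.07% and 1.00% of all features. PER1, a PERIOD gene whose protein represses CLOCK and BMAL, was at 2.94, 3.42 and 3.33 CPM by day and 73.3, 100.2, 116 and 89.8 CPM at night. Every night brain was far above every day brain (log2 ratio 4.87, SE 0.26, edgeR adjusted p 1.16e-07). PER3, a further PERIOD gene and the feature with the smallest p of the comparison, was at 7.82, 8.8 and 8.54 CPM by day and 87.8, 104, 90.8 and 112 CPM at night. Neither group of 3 or 4 brains varied much beside the gap between them (log2 ratio 3.55, SE 0.126, edgeR adjusted p 2.58e-09). The 2 PER2 features, DN2810 and DN4896, were not called (log2 ratios −0.13 and 0.28). The second shares its DN number with PER1. The cryptochromes, which act with PER proteins, went both ways. CRY1 was at 9.11, 8.8 and 8.6 CPM by day and 28.9, 32.1, 48.1 and 29.6 CPM at night, with control night replicate 3 above the rest (log2 ratio 1.97, SE 0.213, edgeR adjusted p 0.000167). Cry2, which the annotation describes as cryptochrome 1ba, was at 134, 131 and 141 CPM by day and 57.4, 65.5, 78.8 and 72.7 CPM at night, so it fell (log2 ratio −0.98, edgeR adjusted p 0.000254). CRY1 and Cry2 share the number DN1907, and whether reads were divided between them was not tested. The other features with the name CRY2, DN11246 and DN17362, were not called (log2 ratios 0.92 and 0.87).

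The repressors that work beside PER and CRY rose as well. BHLHE40 and BHLHE41 encode DEC1 and DEC2, which block the same promoter elements as CLOCK and BMAL use. BHLHE41 was at 17.2, 19.6 and 21 CPM by day and 176, 218, 242 and 211 CPM at night, with no overlap (log2 ratio 3.46, SE 0.173, edgeR adjusted p 5.65e-08). BHLHE40 rose by 2.15 on the same scale (SE 0.145, edgeR adjusted p 1.28e-06), from 28.4–33.4 CPM to 110.1–159 CPM. The feature named ciart, the circadian associated repressor also known as CHRONO, was close to absent by day. It was at 0.0717, 0.38 and 0.0585 CPM by day and 47.6, 60.9, 102 and 49.8 CPM at night, with no overlap (edgeR adjusted p 3.65e-07); no fold is given because single day libraries held very few reads. Some features without a gene name are described as clock proteins; of those, DN650, DN9345 and DN6756 were chosen after their values were seen. DN650 and DN9345, described like ciart, were at 1.23–2.5 and 42.7–54.1 CPM by day and 10–13.5 and 114–143 CPM at night (edgeR adjusted p 6.04e-05 and 1.8e-05). A feature named CIART, DN1024, was at 0–0.645 CPM by day and 1.04–4.41 CPM at night and was not called (edgeR adjusted p 0.17). DN1929, described as the CLOCK-interacting protein CIPC, which holds CLOCK back, was at 13.4, 11.9 and 14.3 CPM by day and 63.1, 60.8, 85.2 and 81.4 CPM at night (log2 ratio 2.46, SE 0.142, edgeR adjusted p 2.58e-07). The feature named CIPC (DN1711) was at 5.79–6.46 CPM by day and 14.1–30.5 CPM at night, its highest value again in control night replicate 3 (log2 ratio 1.65, edgeR adjusted p 0.00378).

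REV-ERB receptors, which bind heme and repress BMAL genes, were high at the end of the night, while 2 features described as ROR receptors, which activate from the same sites, fell. NR1D1 (REV-ERB alpha) was at 1.29, 0.489 and 2.22 CPM by day and 131, 152, 95.6 and 115 CPM at night. Day brains held little of it and all 4 night brains much (log2 ratio 6.54, SE 0.505, edgeR adjusted p 5.26e-06). Both features named NR1D2 (REV-ERB beta) rose, DN9051 from 25.6–37.3 CPM to 120.5–136 CPM and DN1975 from 15.2–35.4 CPM to 97.6–138 CPM (log2 ratios 1.99 and 2.24, edgeR adjusted p 3.21e-06 and 0.000195). An unnamed feature of the same receptor group, DN6756, was at 13.7, 14.4 and 14.7 CPM by day and 98.9, 82.4, 62.8 and 68.2 CPM at night (log2 ratio 2.45, edgeR adjusted p 0.000245). In the other direction, DN8914, described as ROR-beta-like, was at 101, 118 and 107 CPM by day and 4.04, 3.55, 4.53 and 4.41 CPM at night. The 4 night brains lay far below the 3 day brains and close to each other (log2 ratio −4.71, SE 0.17, edgeR adjusted p 2.58e-09). The feature named Hr46, described as RAR-related orphan receptor C a, fell from 26.3–36.7 CPM to 1.73–3.89 CPM (log2 ratio −3.48, SE 0.269, edgeR adjusted p 5.26e-06). Of the features named RORA and RORB, 0 of 3 were called, and their log2 ratios were positive. They were 0.19 for RORA DN1311, 1.46 for RORA DN4406 and 0.16 for RORB. The list of REV-ERB and ROR names, which leaves out DN8914 and Hr46, held 3 called higher of 6 tested, against 1.07% of all features. All 6 log2 ratios were positive (median 1.72). For 4 of the 6 every night brain lay above every day brain, against 6.59% of all features.

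**Figure D2:**
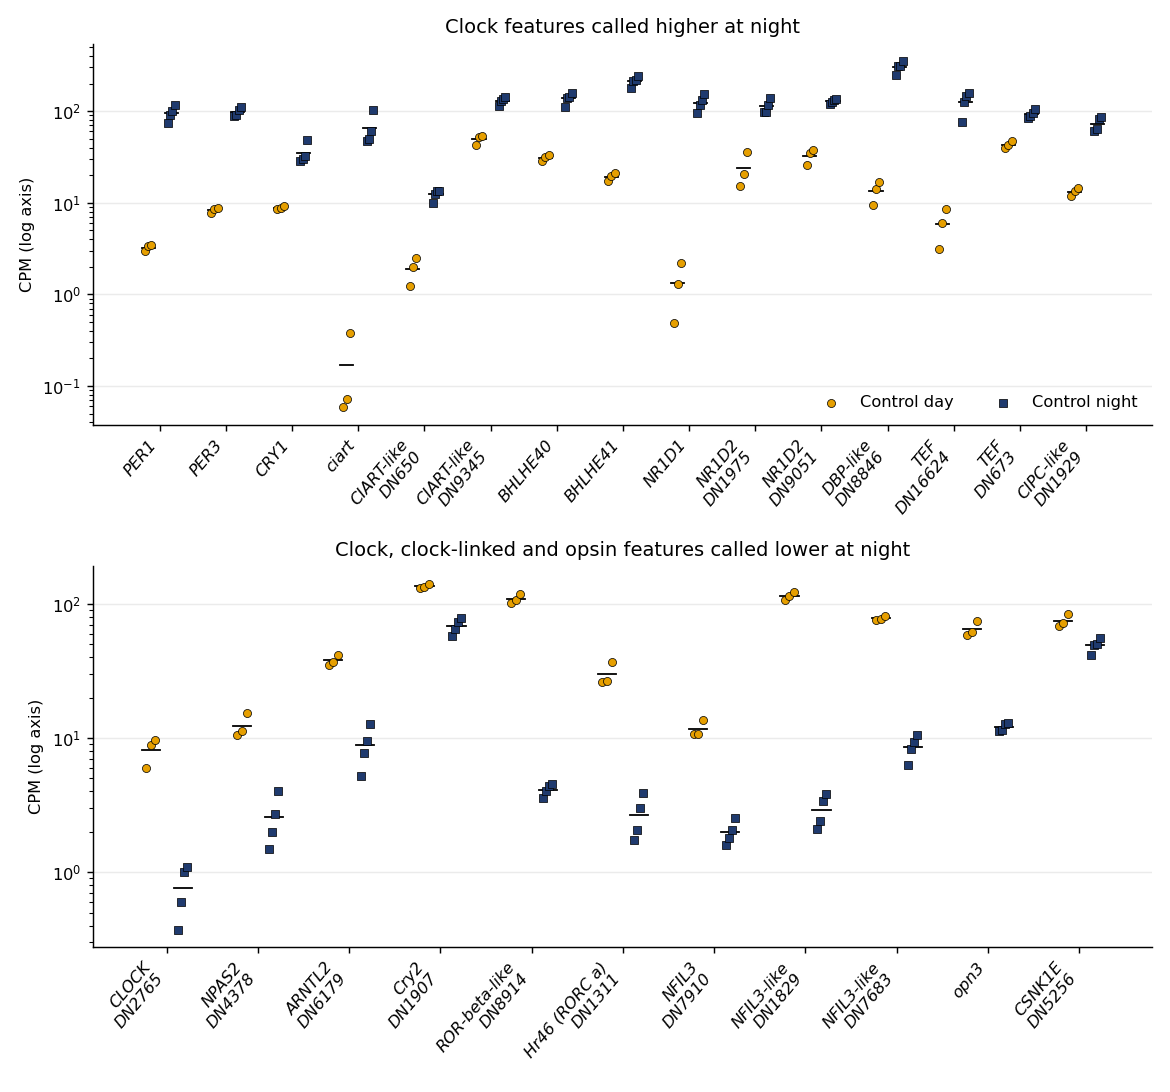
CPM of called clock features in each control brain (log axis): orange circles are the 3 day brains, blue squares the 4 night brains, and short lines the group means. In the upper panel every night brain lies above every day brain, as for NR1D1 at 0.489 to 2.22 CPM by day and 95.6 to 152 CPM at night, and in the lower panel every night brain lies below.

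The activators of the loop were low when its repressors were high. Of 9 tested features named CLOCK, NPAS2, ARNTL or ARNTL2, 3 fell and 0 rose, against 1.00% and 1.07% of all features. Their median log2 ratio was −2.1, against 0.01 over all features. At an unadjusted p under 0.05, 7 of 9 were lower at night, against 7.02%. CLOCK DN2765 was at 9.68, 6.03 and 8.83 CPM by day and 1.1, 1, 0.373 and 0.599 CPM at night (log2 ratio −3.41, SE 0.368, edgeR adjusted p 0.000167). ARNTL2 DN6179, a BMAL gene, was at 36.9, 35.2 and 41.6 CPM by day and 12.8, 9.51, 5.22 and 7.74 CPM at night (log2 ratio −2.1, SE 0.238, edgeR adjusted p 0.000254). NPAS2 DN4378, which can replace CLOCK, fell from 10.5–15.4 CPM to 1.5–4.04 CPM (log2 ratio −2.28, edgeR adjusted p 0.00765, but 0.0608 without control day replicate 1 and control night replicate 4, the 2 brains richest in blood markers). Day and night brains did not overlap for any of these 3 features. The remaining CLOCK features DN7558, DN11652 and DN1042 had log2 ratios of −1.43, −0.71 and −0.45, NPAS2 DN25099 had −2.41, ARNTL had −2.17 and ARNTL2 DN3530 had 0.36, and none of them was called by edgeR. DESeq2, which called 1108 features in all (545 lower), called 7 of the 9 activators lower. By edgeR 2 of the 9 fell without the 2 brains richest in blood markers, and 2 with photoreceptor, pituitary and muscle signals as covariates. Of all features, these 2 settings called 163 of 21015 and 158 of 20782, against 430 of 20782. At an unadjusted p under 0.05 they held 2187 and 2114, against 3031. The first setting leaves each group 1 brain smaller, and the part of this in lost calls was not tested. Counts below for these settings stand against these totals.

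Clock output factors were among the features with the largest fold changes. DN8846, described as the D-site binding protein DBP, was at 9.39, 16.8 and 14 CPM by day and 246, 349.6, 307 and 311 CPM at night (log2 ratio 4.50, SE 0.302, edgeR adjusted p 1.28e-06). TEF DN16624 was at 6.02, 8.47 and 3.1 CPM by day and 76.8, 125, 157 and 148 CPM at night (log2 ratio 4.43, SE 0.495, edgeR adjusted p 0.000238), and TEF DN673 rose from 39.1–46.6 CPM to 84.4–105 CPM (log2 ratio 1.12, edgeR adjusted p 0.000515). TEF DN11836 was not called (log2 ratio 1.16, edgeR adjusted p 0.0861), nor were the 2 HLF features (0.66 and 0.72). NFIL3, which represses the sites that DBP and TEF activate, went the other way. The feature with this name fell from 10.7–13.7 CPM to 1.59–2.52 CPM (log2 ratio −2.55, SE 0.235, edgeR adjusted p 3.79e-05). DN1829, described as a member of the NFIL3 family, was at 122, 115 and 106 CPM by day and 2.43, 2.1, 3.41 and 3.81 CPM at night (log2 ratio −5.27, SE 0.206, edgeR adjusted p 4.85e-09). DN7683, described the same way, was at 77.6, 75.5 and 81.3 CPM by day and 8.26, 6.36, 9.33 and 10.6 CPM at night (log2 ratio −3.18, SE 0.155, edgeR adjusted p 4.68e-08). All 3 NFIL3-type features were thus high late in the day and low late in the night in each brain.

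Clock kinases and F-box proteins set the pace of the clock. Of 15 features for them, 1 rose and 1 fell (median log2 ratio −0.08), against 1.07% and 1.00% of all features. CSNK1D, 1 of 2 features of this name in the component DN1746 and a casein kinase that marks PER proteins for breakdown, rose from 47–54.1 CPM to 85.5–95.9 CPM (log2 ratio 0.83, SE 0.0991, edgeR adjusted p 0.00038). CSNK1E DN5256, its close relative, fell from 68.7–83.7 CPM to 41.9–55.5 CPM (log2 ratio −0.60, edgeR adjusted p 0.00888), a call lost without day replicate 1 (adjusted p 0.057). CSNK1E DN13848 and the CSNK1E feature of DN1746 were not called (log2 ratios 0.27 and −0.26). Of the 10 features for melatonin and non-visual opsins, opn3 alone was called, and it fell, against 1.00% of all features called lower. This gene encodes encephalopsin, an opsin found in brain. It was at 62.1, 58.5 and 74.3 CPM by day and 11.5, 11.3, 12.8 and 12.9 CPM at night, with no overlap (log2 ratio −2.42, SE 0.135, edgeR adjusted p 1.83e-07). AANAT and ASMT, which make melatonin, were not called (log2 ratios −0.52 and −0.47). Of 15 features for DNA repair genes that light controls in fish, 0 were called by edgeR. At an unadjusted p under 0.05, 0 rose and 2 fell, against 7.56% and 7.02% of all features. The photolyase phr went from 13.5–18.6 CPM to 3.75–9.75 CPM (log2 ratio −1.26, edgeR adjusted p 0.0502). In the list of cold-inducible RNA-binding proteins 0 of 4 were called, with the smallest p in RBMX (log2 ratio −0.42, edgeR adjusted p 0.0838).

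Outside the clock, the features with the smallest p included genes on none of the lists. A feature with the name of the splicing factor SMU1 (DN1335) was at 8.39, 10.5 and 10.6 CPM by day and 603, 434, 469.7 and 394 CPM at night (log2 ratio 5.59, SE 0.237, edgeR adjusted p 1.1e-08). The other SMU1 feature, DN1320, was at 15.3–24.8 CPM and 16.1–34.6 CPM, and was not called. The zinc finger gene znf395 (DN5421) was at 47.8, 49.3 and 48.6 CPM by day and 207, 206, 225 and 195 CPM at night (log2 ratio 2.1, SE 0.146, edgeR adjusted p 1.57e-06), whereas ZNF395 DN9031 was not called (log2 ratio 0.30). TCP11L2 rose from 4.59–6.9 CPM to 27.8–40.6 CPM and FBXO25, which helps to select proteins for breakdown, from 11.6–14.3 CPM to 58.4–78.2 CPM (log2 ratios 2.66 and 2.48, edgeR adjusted p 7.99e-06 and 3.79e-05). DN957, an unnamed feature described as having ankyrin repeats and a SOCS box and chosen after its values were seen, rose by 3.88 on the log2 scale (edgeR adjusted p 1.57e-06). KCTD17 and FAM107B, chosen the same way, rose from means of 29.1 to 79.6 CPM and 182 to 419.9 CPM (log2 ratios 1.45 and 1.21, edgeR adjusted p 3.79e-05 and 0.000375).

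Among those that fell, several have roles in neurons. RIMKLB, an enzyme that joins glutamate to N-acetylaspartate, was at 50.9, 46.1 and 45.9 CPM by day and 15.8, 16.5, 15.1 and 17.9 CPM at night (log2 ratio −1.54, SE 0.098, edgeR adjusted p 7.2e-07). NYAP2 DN7308, a neuronal adaptor of PI3-kinase signalling, fell from 50.4–53.4 CPM to 13.1–14.7 CPM and NYAP2 DN10296 from 17.9–34.8 CPM to 6.82–10.9 CPM (log2 ratios −1.90 and −1.58, edgeR adjusted p 1.09e-06 and 0.0083), while DN15311 had −0.07 and was not called. PRICKLE2 DN9664, a planar polarity gene, fell from 71.9–83 CPM to 28.8–30.8 CPM (log2 ratio −1.37, edgeR adjusted p 1.57e-06) and PRICKLE2 DN12200 did not pass the test (0.18). DN2450, an unnamed protocadherin, was at 39.7, 41.5 and 42.6 CPM by day and 7.51, 7.26, 7.14 and 6.16 CPM at night (log2 ratio −2.56, SE 0.119, edgeR adjusted p 3.16e-08). The protocadherin PCDH8, which acts at active synapses, was at 158, 131 and 167 CPM by day and 74.8, 72.9, 67.6 and 71.6 CPM at night (log2 ratio −1.08, edgeR adjusted p 0.00141). ITM2C DN13098, a membrane protein of neurons, fell from 133–146 CPM to 46.1–60.6 CPM (log2 ratio −1.44, edgeR adjusted p 8.78e-05), whereas ITM2C DN10239 had −0.15 and was not called. MARCKSL1, which binds actin and calmodulin beneath the membrane, is an abundant message. Its feature DN14006 was at 1335, 1184 and 1309 CPM by day and 768, 680.5, 694 and 756 CPM at night (log2 ratio −0.82, edgeR adjusted p 0.00013). MARCKSL1 DN4955 fell by 0.45 on the log2 scale (edgeR adjusted p 0.0178), a call lost without day replicate 1 or 4, or night replicate 2, 3 or 4 (adjusted p up to 0.0855).

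Immediate-early genes were low late in the night. Of 39 features on this list, 11 fell and 2 rose (median log2 ratio −0.53), against 1.00% and 1.07% of all features, and 21 were lower at an unadjusted p under 0.05, against 7.02%. FOS, a subunit of the AP-1 transcription factor, was at 42.5, 44.4 and 64 CPM by day and 12.5, 11.2, 11.5 and 15.3 CPM at night. The night brains lay close together and well below the day brains (log2 ratio −1.99, SE 0.21, edgeR adjusted p 0.00013). FOSB was at 3.94, 3.8 and 5.21 CPM by day and 0.578, 0.701, 0.607 and 0.599 CPM at night (log2 ratio −2.79, SE 0.258, edgeR adjusted p 3.79e-05). EGR2 DN13711, a zinc finger factor induced by growth factors and firing, was at 31, 41.1 and 37.2 CPM by day and 4.16, 4.3, 3.45 and 5.17 CPM at night (log2 ratio −3.09, SE 0.287, edgeR adjusted p 3.79e-05). Both EGR1 features fell, DN67897 from 33–58.2 CPM to 8.03–13.7 CPM and DN8733 from 146–184 CPM to 83.8–89.7 CPM (log2 ratios −2.06 and −0.95, edgeR adjusted p 0.000367 and 0.00303). NPAS4 DN12604, which neurons switch on in response to calcium, was at 15.8, 16.3 and 20.7 CPM by day and 4.68, 4.7, 5.6 and 6.71 CPM at night (log2 ratio −1.70, edgeR adjusted p 8.19e-05). NPAS4 DN7275 and EGR2 DN62330 were not called (log2 ratios −0.99 and −0.21).

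Among the other members of the list, DUSP5, a phosphatase that switches off ERK, was at 155, 169 and 166 CPM by day and 75.2, 79.2, 60 and 95.1 CPM at night (log2 ratio −1.08, edgeR adjusted p 0.0026). FOSL2, JUNB and JUND DN13545, partners in AP-1, fell by 1.00, 0.53 and 0.54 on the log2 scale, and IER2 by 0.75 (edgeR adjusted p 0.00037, 0.0392, 0.00303 and 0.0486). JUNB lost its call without day replicate 1, 2 or 4, or night replicate 1, 2 or 4 (adjusted p up to 0.166), and IER2 without day replicate 1, 2 or 4, or night replicate 2, 3 or 4 (adjusted p up to 0.192). The 2 members that rose were DUSP6 and KLF2. DUSP6 DN3438, a phosphatase that also acts on ERK, was at 77.5, 58.7 and 78.8 CPM by day and 362, 321, 328 and 240.1 CPM at night, in every night brain above every day brain (log2 ratio 2.13, SE 0.17, edgeR adjusted p 7.41e-06). A second DUSP6 feature of the same component was not called (log2 ratio −0.84). KLF2 DN10687 rose from 8.39–13.4 CPM to 20.4–22.6 CPM (log2 ratio 1.00, edgeR adjusted p 0.014), a call lost without day replicate 1 (adjusted p 0.0746). KLF2 DN15472 and a second JUND feature of DN13545 were not called (log2 ratios 0.66 and −0.41). NR4A1, NR4A2, NR4A3 and EGR3, which belong to the same class, were not called. Outside the list and chosen after their values were seen, NAB2, which restrains EGR proteins, RCAN1, which restrains calcineurin, and the ETS factor ETV5 fell as well (log2 ratios −1.41, −0.84 and −0.89, edgeR adjusted p 0.00101, 0.00295 and 0.00242). Without the 2 brains richest in blood markers, 9 of the list fell and 1 rose.

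**Figure D3:**
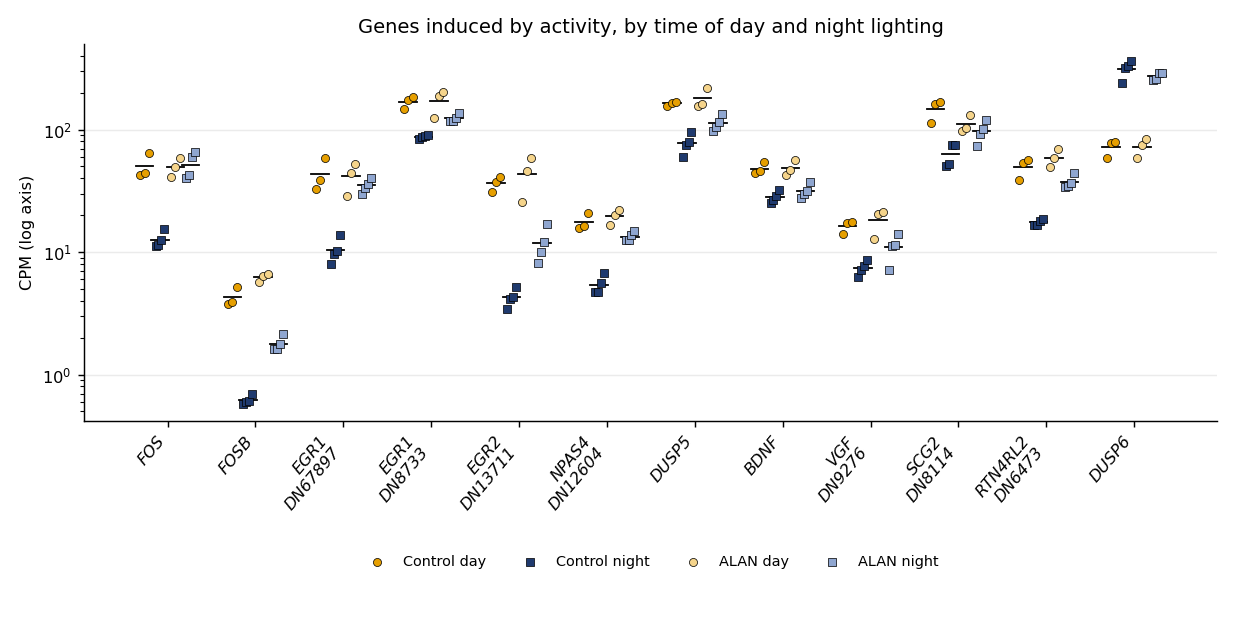
CPM of genes that neuronal activity or growth factors induce (log axis) in control day (orange circles), control night (dark blue squares), ALAN day (pale circles) and ALAN night (pale blue squares) brains; short lines are means. In control fish the night brains lie below the day brains for every feature but DUSP6, which lies above; FOS was at 11.2 to 15.3 CPM in control night brains.

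Genes for secreted and synaptic products of active neurons followed in part. Of 23 features on this list, 6 fell and 0 rose (median log2 ratio −0.23), against 1.00% and 1.07% of all features. They were both VGF features, 2 of 3 SCG2 features, INHBA and BDNF. SCG2 DN8114, secretogranin II, a granule protein that is the source of small peptides, was at 161, 113 and 168 CPM by day and 75.5, 75.5, 50.7 and 52.3 CPM at night (log2 ratio −1.22, SE 0.203, edgeR adjusted p 0.00595). BDNF, a growth factor of synapses, was at 43.8, 45.5 and 54.3 CPM by day and 32.2, 25.2, 28.8 and 26.8 CPM at night (log2 ratio −0.76, edgeR adjusted p 0.0126). VGF DN9276 and DN12269, which encode a peptide precursor, fell by 1.14 and 0.64 on the log2 scale (edgeR adjusted p 0.0211 and 0.026). INHBA, a subunit of activin, fell from 1.79–4.5 CPM to 0.289–0.851 CPM (edgeR adjusted p 0.0142). These calls were not firm: BDNF lost its call without day replicate 4 (adjusted p 0.0706), INHBA without day replicate 4 (adjusted p 0.0911), VGF DN9276 without day replicate 1, or night replicate 1, 2 or 4 (adjusted p up to 0.091), VGF DN12269 without day replicate 1 or 4, or night replicate 1, 2 or 4 (adjusted p up to 0.131) and SCG2 DN31922 without any 1 of the 7 libraries (adjusted p up to 0.121). SCG2 DN7515 was just outside the threshold (log2 ratio −0.46, edgeR adjusted p 0.0502). Without the 2 brains richest in blood markers, 1 of the 23 was called, against 163 of all 21015 features tested in that setting.

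RTN4RL2, a Nogo receptor that limits axon growth and synapse number, was called in both of its features. DN6473 was at 38.9, 53.4 and 56.3 CPM by day and 16.5, 16.8, 18.7 and 17.8 CPM at night, and DN8334 at 52.4, 63.6 and 53.2 CPM and 28.9, 27.4, 25.9 and 26.9 CPM (log2 ratios −1.51 and −1.05, edgeR adjusted p 9.34e-05 and 0.000299). RASD1, a small G protein that glucocorticoids induce and that modulates signalling of the clock in mammals, was at 190.5, 191 and 204 CPM by day and 83.6, 103, 107 and 89.1 CPM at night (log2 ratio −1.03, edgeR adjusted p 0.000307) and was chosen after its values were seen.

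Peptide genes of the hypothalamus showed few calls. In the system of corticotropin-releasing hormone, the peptide that starts the stress response, 2 of 13 features fell and 0 rose (median log2 ratio −0.21). Over all features the shares were 1.00% and 1.07%. CRH was at 55.1, 43.8 and 70 CPM by day and 40.3, 28.2, 32 and 33.1 CPM at night, and its binding protein CRHBP at 80.9, 64.4 and 68.7 CPM and 51.5, 41.6, 45.6 and 41.8 CPM (log2 ratios −0.75 and −0.66, edgeR adjusted p 0.0353 for both). CRH lost its call without day replicate 1 or 4, or night replicate 2, 3 or 4 (adjusted p up to 0.163) and CRHBP without day replicate 1 or 4, or night replicate 2, 3 or 4 (adjusted p up to 0.164), and 0 of the 13 were called without the 2 brains richest in blood markers. Of 22 features for feeding and sleep peptides, AGRP alone was called. This appetite peptide was at 15.2, 42.4 and 22.8 CPM by day and 5.95, 12.3, 7.88 and 7.78 CPM at night (log2 ratio −1.66, SE 0.347, edgeR adjusted p 0.0247). The call was lost without day replicate 2 or 4, or night replicate 1, 3 or 4 (adjusted p up to 0.0873). AGRP and a TEF feature that rose share the number DN16624. HCRT (hypocretin), NPY, GAL and NPVF were not called (log2 ratios −0.31, −0.49, −0.35 and −0.53). DN74708, an unnamed feature described as cocaine- and amphetamine-regulated transcript and chosen after its values were seen, was at 225, 231 and 243 CPM by day and 113, 135, 96.1 and 108 CPM at night (log2 ratio −1.04, edgeR adjusted p 0.00496), whereas the 2 CARTPT features were not called (−0.16 and −0.14). In the vasotocin and isotocin system 0 of 6 features were called by edgeR, and 0 at an unadjusted p under 0.05; the smallest p was in OXTR DN15636 (edgeR adjusted p 0.645). Of 23 features for monoamines 0 were called, with 2 higher and 3 lower at an unadjusted p under 0.05, the smallest p being that of the noradrenaline transporter SLC6A2 (log2 ratio 1.14, edgeR adjusted p 0.0923).

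Receptors and channels of synapses moved little as groups. Of all features, 1.00% were called lower and 1.07% higher. Among 89 glutamate receptor features 1 fell and 0 rose (median log2 ratio 0.02), among 40 for GABA and glycine receptors 2 fell and 0 rose (median −0.11), among 92 potassium channel features 2 rose and 0 fell (median 0.02), among 83 sodium and calcium channel features 1 fell and 0 rose (median 0.03), and among 83 features of the vesicle machinery 1 fell and 0 rose (median −0.06). GRM5 DN1108, a metabotropic glutamate receptor, was at 78.4, 70.9 and 79.3 CPM by day and 49.9, 51.9, 56.1 and 40.1 CPM at night (log2 ratio −0.62, edgeR adjusted p 0.0367), a call lost without day replicate 1 or 4, or night replicate 1, 2 or 4 (adjusted p up to 0.127). GRM5 DN14766 and DN18660 were not called (log2 ratios −0.668 and 0.145). GLRA2, a glycine receptor subunit, fell from 40.8–52.8 CPM to 26.9–30.2 CPM (log2 ratio −0.73, edgeR adjusted p 0.0108), a call lost without day replicate 4 (adjusted p 0.0655). CACNG5 DN962, a subunit that tunes AMPA receptors, was at 23.9, 28.2 and 28.9 CPM by day and 12.8, 11.6, 11.2 and 9.11 CPM at night (log2 ratio −1.28, SE 0.145, edgeR adjusted p 0.000254). UNC13A DN440, which primes vesicles for release, fell from 72.7–93.6 CPM to 41.9–62.5 CPM (edgeR adjusted p 0.0194), a call lost without day replicate 1 or 4, or night replicate 3 or 4 (adjusted p up to 0.101). CACNG5 DN3974 and UNC13A DN407 were not called (log2 ratios −0.41 and −0.22). The 2 potassium channel features that rose were both KCNJ10, the inward rectifier of glia. KCNJ10 DN4188 was at 6.46, 18.2 and 11.9 CPM by day and 52.7, 44, 62.6 and 39.3 CPM at night, and KCNJ10 DN4339 at 15.1, 25.1 and 13.4 CPM and 44, 47.9, 59.4 and 62.5 CPM (log2 ratios 2.02 and 1.58, edgeR adjusted p 0.00421 and 0.00408). KCNJ10 DN4339 lost its call without the 2 brains richest in blood markers (adjusted p 0.07162). GLRA4, a glycine receptor subunit with 2 features in the component DN1976, fell in 1 of them from 2.81–3.51 CPM to 0.14–0.701 CPM (edgeR adjusted p 0.00585). That call was lost without the 2 brains richest in blood markers (adjusted p 0.0761). With counts summed by gene name, GLRA4 was not called (adjusted p 0.1015).

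Chaperone genes that changed were lower late in the night. Of 38 features on this list, 3 fell and 0 rose (median log2 ratio −0.27), against 1.00% and 1.07% of all features. At an unadjusted p under 0.05, 15 were lower and 3 higher, against 7.02% and 7.56%. Without the 2 brains richest in blood markers, and likewise with the tissue covariates, 1 of the 38 fell. HSP90AA1, the inducible form of the cytosolic chaperone HSP90, was at 357, 402 and 441 CPM by day and 160.4, 206, 222 and 183 CPM at night (log2 ratio −1.05, SE 0.123, edgeR adjusted p 0.000325). DNAJB1 DN9118 and DNAJB5 DN75560, co-chaperones of HSP70, fell from 19–25.4 CPM to 11.6–13 CPM and from 245–348 CPM to 118–209 CPM (log2 ratios −0.89 and −0.97, edgeR adjusted p 0.00448 and 0.0336). DNAJB5 lost its call without day replicate 1 or 4, or night replicate 1, 2 or 4 (adjusted p up to 0.16). DNAJB5 DN6974 and DNAJB1 DN5881 were not called (log2 ratios 0.38 and −0.585). HSPA8, HSPA5, HSPD1 and HSP90AB1 were not called (log2 ratios between −0.50 and −0.27). In the list of endoplasmic reticulum stress and the integrated stress response, 3 of 24 fell and 0 rose (median −0.10). MANF, a secreted protein of the stressed endoplasmic reticulum, was at 17.4, 24.2 and 21.4 CPM by day and 10.5, 7.71, 9.52 and 7.91 CPM at night (log2 ratio −1.24, SE 0.164, edgeR adjusted p 0.00102). CHAC1, which breaks down glutathione, was at 568, 514 and 599.8 CPM by day and 382, 362, 313 and 312 CPM at night (log2 ratio −0.71, edgeR adjusted p 0.00843). Its call was lost without the 2 brains richest in blood markers and with the tissue covariates (adjusted p 0.1021 and 0.09602). CRELD2 fell by 0.85 (edgeR adjusted p 0.0486), a call lost without day replicate 1, 2 or 4, or night replicate 1, 3 or 4 (adjusted p up to 0.184). DDIT3, XBP1 and both ATF4 features were not called (log2 ratios between −0.30 and −0.07).

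Of 22 features for genes that respond to corticosteroids, 4 rose and 0 fell (median log2 ratio 0.57), against 1.07% and 1.00% of all features. At an unadjusted p under 0.05, 9 were higher and 0 lower, against 7.56% and 7.02%, and 4 of the 22 had a negative log2 ratio. PER1 belongs to this list as well as to the clock. DDIT4, an inhibitor of mTOR signalling, was at 94.6, 112 and 106 CPM by day and 188, 209, 362 and 189 CPM at night, highest in control night replicate 3 (log2 ratio 1.19, SE 0.204, edgeR adjusted p 0.00721). The transcription factor klf9 was at 4.3, 4.4 and 4.09 CPM by day and 9.53, 8.66, 15 and 6.93 CPM at night (log2 ratio 1.23, edgeR adjusted p 0.0347) and lost its call without day replicate 1, 2 or 4, or night replicate 1, 2 or 3 (adjusted p up to 0.135). FKBP5, PDK4 and ANGPTL4, further targets of the glucocorticoid receptor, were not called (log2 ratios 2.19, 1.45 and 0.89), and the receptors NR3C1 (3 features) and NR3C2 lay between −0.24 and 0.38. Without the 2 brains richest in blood markers 2 of the 22 rose, and with the 7 control libraries alone 1. In the thyroid hormone list 2 of 13 rose and 0 fell, klf9 and the deiodinase DIO1, with a log2 ratio of 0.57 (edgeR adjusted p 0.0474), a call lost without any 1 of the 7 libraries (adjusted p up to 0.162). GLUL, the remaining corticosteroid gene that rose, is given with the glia.

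Where markers of glia, microglia and blood vessels changed, they rose. Of 23 radial glia and astroglia features, 3 rose and 0 fell (median log2 ratio 0.57); 4 of 16 microglia and macrophage features rose and 0 fell (median 1.47); and 3 of 19 vascular and mural features rose and 0 fell (median 0.23). Over all features 1.07% rose and 1.00% fell. At an unadjusted p under 0.05, 11 of the 16 microglia features were higher, against 7.56% of all features. Summed over its list, the radial glia signal was 4721, 7238 and 5987 CPM by day and 9379, 8314, 8933 and 8160.0 CPM at night, and the microglia signal 266, 841 and 321 CPM by day and 1364, 1425, 1397 and 864 CPM at night. Neither pair of groups overlapped, with control day replicate 2 the highest day brain in both. The vascular sum was 213, 227 and 194 CPM by day and 252, 275, 276 and 265 CPM at night, also without overlap. Over the 29 neuron markers the sum was 4540.0, 4199 and 4349 CPM by day and 4150.0, 3954, 3903 and 4108 CPM at night (1 fell, 0 rose, median −0.21). The neuron sum was thus lower in every night brain than in any day brain. The neuron feature that fell was GAD1 DN95, an enzyme that makes GABA (log2 ratio −0.37, edgeR adjusted p 0.0247), a call lost without day replicate 1 or 4, or night replicate 1, 2, 3 or 4 (adjusted p up to 0.104), and GAD1 DN8682 and DN15580 were not called (−0.22 and −0.37). Of oligodendrocyte and myelin features, 0 of 20 were called by edgeR, with 2 higher and 0 lower at an unadjusted p under 0.05 and the smallest p in cldn11 (log2 ratio 1.21, edgeR adjusted p 0.172).

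By gene, glutamine synthetase GLUL DN2249, with which glia recycle glutamate, was at 614, 1533 and 737 CPM by day and 1708, 2032, 2401 and 1935 CPM at night (log2 ratio 1.07, SE 0.256, edgeR adjusted p 0.0486). A second GLUL feature of this component was not called (log2 ratio 0.87). GJA1, the gap junction protein connexin 43, was at 132, 277 and 137 CPM by day and 427, 368, 349.6 and 325 CPM at night (log2 ratio 1.01, edgeR adjusted p 0.0336). HES5, a target of Notch in radial glia, rose from 5.52–15 CPM to 23.4–24.5 CPM (edgeR adjusted p 0.0194). In microglia, cd74, the chaperone of MHC class II, was at 51.5, 61.3 and 56 CPM by day and 246, 252, 164 and 126 CPM at night (log2 ratio 1.80, edgeR adjusted p 0.0267). CSF1R DN6571, the receptor on which microglia depend, was at 1.22, 2.39 and 0.76 CPM by day and 6.93, 9.26, 6.67 and 3.04 CPM at night, and IRF8 and the protease CTSS rose from 0.526–1.2 CPM to 2.69–5.15 CPM and from 3.3–4.4 CPM to 7.78–16.3 CPM (edgeR adjusted p 0.0353, 0.0215 and 0.0208). FLT1, a receptor of vascular growth factor, rose in both features, DN21232 from 1.87–5.43 CPM to 9.84–13.6 CPM and DN309 from 0.287–0.76 CPM to 2.19–2.65 CPM, and the pericyte gene RGS5 from 7.75–18.4 CPM to 22.8–43.7 CPM (edgeR adjusted p 0.00767, 0.0131 and 0.0321). Genes of the vessel wall outside the list, chosen after their values were seen, were also called: COL4A1 and COL4A2, collagens of the basement membrane, and the endothelial factor SOX17 (log2 ratios 1.85, 1.47 and 1.01, edgeR adjusted p 0.0247, 0.00371 and 0.0252). COL4A1 lost its call without day replicate 1 or 4, or night replicate 2, 3 or 4 (adjusted p up to 0.121) and SOX17 without day replicate 1 or 4, or night replicate 1, 3 or 4 (adjusted p up to 0.0972), and COL4A2 without the 2 brains richest in blood markers (adjusted p 0.0652). DN6030, described as prostaglandin D2 synthase b and chosen the same way, is an enzyme whose product promotes sleep in mammals. It was at 114, 202 and 156 CPM by day and 486, 916, 582 and 527 CPM at night (log2 ratio 2.00, SE 0.311, edgeR adjusted p 0.00371).

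Most called members of the radial glia, microglia and vascular lists lost their call when 1 or another library was left out. Leaving out 1 library at a time, the calls ranged from 0 to 5 of 23 for radial glia, from 0 to 5 of 16 for microglia and from 1 to 6 of 19 for vessels. GLUL lost its call without day replicate 1 or 4, or night replicate 1, 2, 3 or 4 (adjusted p up to 0.214), GJA1 without day replicate 1 or 4, or night replicate 1, 2, 3 or 4 (adjusted p up to 0.161) and HES5 without day replicate 4, or night replicate 2 (adjusted p up to 0.0916). Among microglia genes, cd74 lost its call without day replicate 1, 2 or 4, or night replicate 1 or 2 (adjusted p up to 0.12), CSF1R without day replicate 1 or 4, or night replicate 1, 2 or 3 (adjusted p up to 0.153), IRF8 without day replicate 1 or 4, or night replicate 2 (adjusted p up to 0.105) and CTSS without day replicate 1 or 4, or night replicate 2 (adjusted p up to 0.103). RGS5 lost its call without day replicate 1 or 4, or night replicate 2 or 3 (adjusted p up to 0.149) and FLT1 DN309 without day replicate 1 or 4 (adjusted p up to 0.0765). FLT1 DN21232 kept its call with any 1 library left out. Without the 2 brains richest in blood markers, 0 members of these 3 lists were called, while 6, 9 and 6 were higher at an unadjusted p under 0.05 and the medians were 0.39, 1.56 and 0.06.

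**Figure D4:**
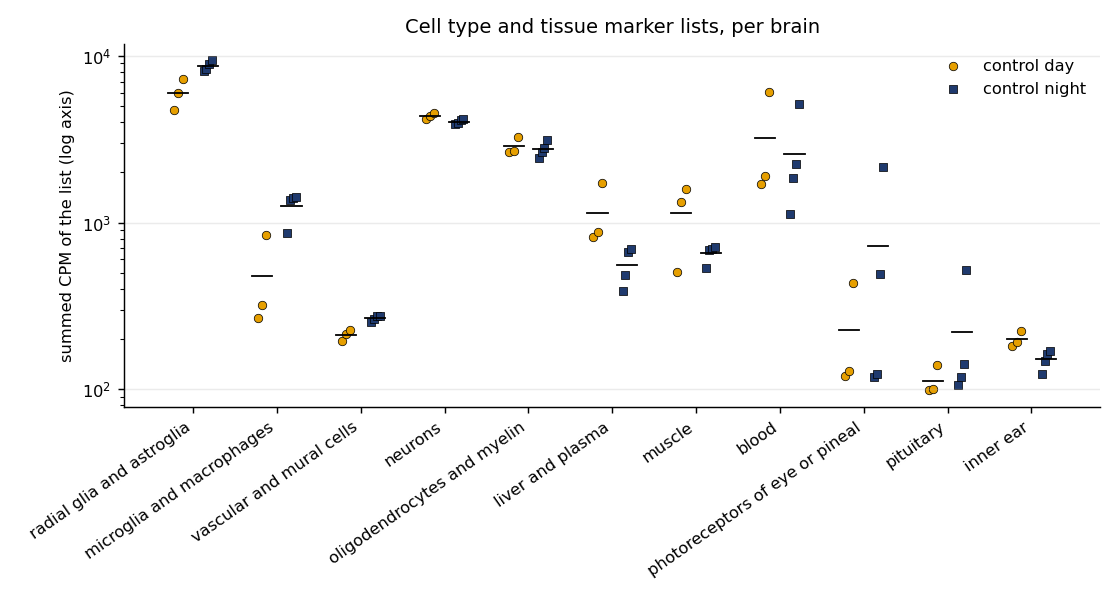
Summed CPM of the features of each marker list (log axis) in each control brain, day in orange circles and night in blue squares, with short lines for the means. Radial glia, microglia and vascular sums are higher in every night brain than in any day brain. Liver and plasma, neuron and inner ear sums are lower in every night brain than in any day brain. Pituitary, blood, muscle and photoreceptor sums are high in 1 to 3 of the 7 brains.

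Markers of tissues other than brain were also uneven between the groups. Liver and plasma genes summed to 878, 1729 and 819 CPM by day and 693, 486, 667 and 386 CPM at night, without overlap. Of 38 features, 3 fell (FGA DN14071, FGA DN719 and C5) and 0 rose, against 1.00% and 1.07% of all features. The median log2 ratio was −2.41. At an unadjusted p under 0.05, 28 of the 38 were lower and 0 higher, against 7.02% and 7.56% of all features. In 29 of them every night brain was below every day brain, against 6.85% of all features. Under ALAN 3 of the list were lower and 3 higher at an unadjusted p under 0.05 (median log2 ratio −0.82). The share of all features at that level under ALAN was not counted. FGA, a fibrinogen chain, was at 9.04, 46.9 and 9.36 CPM by day and 2.6, 0.951, 4.76 and 2.01 CPM at night in DN14071, with control day replicate 2 far above the rest, and that call was lost without day replicate 2, or night replicate 1, 2 or 4 (adjusted p up to 0.125). FGA DN719 lost its call without any 1 of the 7 libraries (adjusted p up to 0.157), and C5 without day replicate 1, 2 or 4, or night replicate 1, 2 or 4 (adjusted p up to 0.145). Muscle genes summed to 1597, 503 and 1321 CPM by day and 717, 534, 681 and 695 CPM at night, photoreceptor genes to 436, 128 and 120.0 CPM and 119, 489, 123 and 2154 CPM, blood genes to 6083, 1701 and 1889 CPM and 1862, 1126, 2233 and 5128 CPM, and pituitary genes to 98.3, 139 and 101 CPM and 105, 141, 119 and 521 CPM. Of the 36 muscle, 32 photoreceptor, 10 blood and 9 pituitary features 0 were called, and the smallest p in each list was that of MYBPC2, arr3, SPTB and prl (edgeR adjusted p 0.0502, 0.0773, 0.473 and 0.312). At an unadjusted p under 0.05, 1 muscle feature was higher and 10 lower, 8 photoreceptor features were higher and 0 lower, 1 pituitary feature was higher and 0 lower, and 0 blood features were either. With photoreceptor, pituitary and muscle signals as covariates 152 of the 430 calls remained, among them those of the 6 clock repressors that rose. Whether these messages came from carried-over tissue, and its part in single calls, was not tested.

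A few features were high in the 3 control day brains and at or near 0 in the control night brains; apart from those on a list, they were chosen after their values were seen. DN2587, described as S100 calcium binding protein S, was at 49.3, 29.8 and 10.7 CPM by day and at 0 in all 4 control night brains. Over the group this is at least 781-fold lower at night, against a floor of 3 counts. OTOL1 DN42126, an otolith protein of the inner ear, was at 5.16, 3.42 and 1.87 CPM by day and 0, 0.15, 0.0467 and 0.0855 CPM at night, TECTB, of the tectorial membrane, at 18.2, 12.3 and 3.92 CPM and 0.0578, 1.4, 0.0467 and 0.257 CPM, and OTOF, of hair cells, at 7.39, 7.6 and 1.93 CPM and 0.231, 0.5, 0 and 0.171 CPM (edgeR adjusted p 0.00585, 0.0285 and 0.0156). In the ALAN day brains OTOL1 was at 0, 0 and 0.156 CPM, TECTB at 0.197, 0 and 0.623 CPM and OTOF at 0.0987, 0.571 and 0.623 CPM, so the day level was not shared by the other fish sampled at ZT11. In all, 3 of 38 inner ear features fell and 0 rose (median log2 ratio −0.52), against 1.00% and 1.07% of all features. The inner ear list was added after the values were seen. Time of day and the amount of inner ear in the sample cannot be told apart for these features. DN44657, which has no description, was at 24.4, 19.6 and 16.3 CPM by day and 0.116, 0.1, 0.607 and 0.0855 CPM at night, and DN11682, described as otolith matrix protein, at 2.73, 3.15 and 12.1 CPM and 1.1, 0.601, 0.653 and 0.727 CPM. TECTB lost its call without day replicate 1 or 2, or night replicate 1, 3 or 4 (adjusted p up to 0.123), OTOF without day replicate 1, or night replicate 4 (adjusted p up to 0.0595) and DN11682 without day replicate 4 (adjusted p 0.0959). OTOL1 lost its call without the 2 brains richest in blood markers (edgeR adjusted p 0.0862). With counts summed by gene name, OTOL1 and OTOF had log2 ratios of −1.62 and −0.40 and were not called (edgeR adjusted p 0.0856 and 0.166).

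Energy metabolism held a few calls. Of 44 features of the citrate cycle, 2 fell and 0 rose (median log2 ratio −0.21), against 1.00% and 1.07% of all features. At an unadjusted p under 0.05, 12 were lower and 0 higher, against 7.02% and 7.56%. Without the 2 brains richest in blood markers, 6 were lower and 0 higher at that level. With the tissue covariates, 3 were lower and 1 higher. The 2 called features are subunits of succinate dehydrogenase, which feeds electrons from the cycle into the respiratory chain. SDHA was at 290.5, 287 and 286 CPM by day and 179, 167, 175 and 165 CPM at night (log2 ratio −0.75, SE 0.0935, edgeR adjusted p 0.000587). SDHB was at 169, 144 and 198 CPM by day and 62.5, 53.3, 51.4 and 57.9 CPM at night, below every day brain in every night brain (log2 ratio −1.60, SE 0.225, edgeR adjusted p 0.00166). SDHA and SDHB are also the 2 that fell of 130 features of oxidative phosphorylation (0 rose, median −0.19). In glycolysis and gluconeogenesis 2 of 91 rose and 2 fell (median −0.10), against 1.07% and 1.00% of all features. PGM1, which leads glucose in and out of glycogen, rose from 41.6–49.3 CPM to 67.3–84.6 CPM (log2 ratio 0.76, edgeR adjusted p 0.00333), and the glycolytic enzymes GPI and PGK1 fell from means of 195 to 149.7 CPM and 332 to 219 CPM (log2 ratios −0.38 and −0.60, edgeR adjusted p 0.0286 and 0.0286). GPI lost its call without day replicate 1 or 4, or night replicate 1, 3 or 4 (adjusted p up to 0.121) and PGK1 without day replicate 1 or 2, or night replicate 1 or 2 (adjusted p up to 0.0953), and neither was called with the 7 control libraries alone, without the 2 brains richest in blood markers or with the tissue covariates (adjusted p between 0.0760 and 0.204). Chosen after their values were seen, the glycogen synthase GYS1 rose from 12.9–16.2 CPM to 31–44.4 CPM and PFKFB4, which sets the level of a regulator of glycolysis, from 22.4–29.6 CPM to 42.2–54.4 CPM (edgeR adjusted p 0.0103 and 0.00233). GYS1 lost its call without day replicate 1 or 4 (adjusted p up to 0.0656). DN6010, described as similar to the alpha subunit of hypoxia-inducible factor 1, was at 23.4, 30.3 and 24.8 CPM by day and 41.7, 50, 84 and 54.4 CPM at night (edgeR adjusted p 0.0158), a call lost without day replicate 1 or 4 (adjusted p up to 0.0881). DN12157, described as BNIP3-like, which marks mitochondria for removal, fell from 135–139 CPM to 73.5–102 CPM (edgeR adjusted p 0.00979). Its call was lost without the 2 brains richest in blood markers and with the tissue covariates (adjusted p 0.09523 and 0.09231).

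Further genes were chosen singly after their values were seen. CTPS1, which makes CTP, was at 0.43, 0.815 and 1.05 CPM by day and 6.76, 7.41, 8.82 and 6.93 CPM at night (log2 ratio 3.26, SE 0.318, edgeR adjusted p 6.04e-05). IMPDH1, which limits the making of guanine nucleotides, and the uridine kinase UCK2 fell, from 34.9–45.5 CPM to 11.7–14.6 CPM and from 26.3–44.9 CPM to 13–16.3 CPM (log2 ratios −1.58 and −1.24, edgeR adjusted p 0.00119 and 0.00448). SMOX, which oxidises spermine, was at 73.9, 94.3 and 105 CPM by day and 280.3, 239, 271 and 249 CPM at night (log2 ratio 1.51, SE 0.179, edgeR adjusted p 0.000375). The exporters ABCC4 and ABCC5 (2 features) and the amino acid carriers SLC3A2 and SLC43A2 rose, with log2 ratios of 1.76, 2.70, 3.29, 1.92 and 2.20 (edgeR adjusted p 0.00802, 0.00126, 0.00177, 0.00699 and 0.00118). ABCC4 lost its call without day replicate 1 (adjusted p 0.0546). SLC3A2 lost its call with the 7 control libraries alone and without the 2 brains richest in blood markers (adjusted p 0.08355 and 0.06612). The autophagy regulators TFEB and WIPI1 rose by 0.99 and 0.56 on the log2 scale (edgeR adjusted p 0.00891 and 0.014), with the call lost for TFEB without day replicate 1 (adjusted p 0.0549) and for WIPI1 without day replicate 4, or night replicate 2 (adjusted p up to 0.0807). The transporter slc35g2 DN1531, named for its level, fell from 126–242 CPM to 75.2–86.4 CPM (log2 ratio −1.06, edgeR adjusted p 0.015). Its call was lost with the 7 control libraries alone (adjusted p 0.08465). It was also lost without the 2 brains richest in blood markers and with the tissue covariates (adjusted p 0.1122 and 0.07128).

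In the KEGG pathways taken from the deposited annotation, circadian rhythm held, of 37 pathways, the largest share of called features, 10 higher and 8 lower of 51 tested (median log2 ratio 0.13). These counts stand against 1.07% of all features called higher and 1.00% lower. The pathways that follow are not ranked by share. Steroid biosynthesis had 2 of 31 higher and 2 lower, 1 of the lower being CYP24A1, and fatty acid biosynthesis 1 of 19 higher and 1 lower. Thyroid hormone signalling had 7 of 226 higher and 2 lower. Cytokine receptor interaction had 9 of 197 higher and 0 lower (median 0.27), insulin signalling 5 of 228 higher and 1 lower (median 0.03) and autophagy 5 of 190 higher and 2 lower (median 0.07). Lysosome had 3 of 188 higher and 0 lower, and MAPK signalling 6 of 509 higher and 8 lower, shares near those of all features. With 1 library left out, the counts of higher features ran from 2 to 10 for cytokine receptor interaction, 0 to 4 for insulin signalling, 2 to 6 for autophagy, 0 to 3 for lysosome and 2 to 14 for MAPK signalling. In cytokine receptor interaction 1 was higher with the 7 control libraries alone, and 1 without the 2 brains richest in blood markers. Among the machinery of gene expression, 0 of 149 spliceosome, 0 of 198 RNA transport and 0 of 54 proteasome features were called by edgeR. At an unadjusted p under 0.05, 5, 2 and 2 were higher and 14, 17 and 5 lower, against 7.56% and 7.02% of all features. Of 123 ribosome features 1, RPL27 DN68395, was called and fell, a call lost without any 1 of the 7 libraries (adjusted p up to 0.133). This feature held 44 counts over the control day brains and 0 at night. Counts summed by gene name gave RPL27 a log2 ratio of −0.05 (edgeR adjusted p 0.909). Complement and coagulation had 2 of 112 higher and 3 lower (median −0.64), the 3 being the FGA and C5 features of the liver list.

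**Figure D5:**
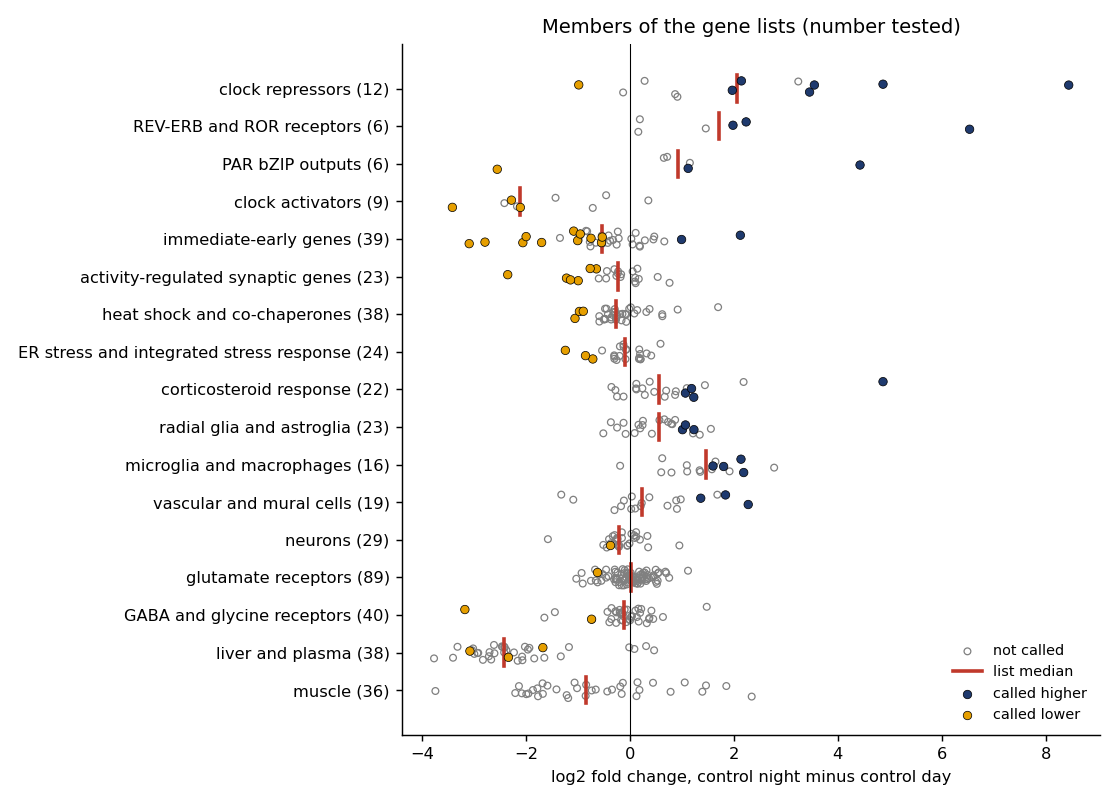
Log2 fold change (control night minus control day) of each tested member of 17 gene lists; filled points were called (blue higher, orange lower), open points were not, and the red line is the list median. Medians run from 2.06 for clock repressors to −2.41 for liver and plasma genes.

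The same comparison within the ALAN fish, made from 7 other libraries in the same fit, gave log2 ratios on the same side for 396 of the 430 features. The share on the same side among all features was not counted. Of these 430, 148 were called there as well, where 214 features (1.03%) were called in all. Called clock features there included PER1, with a log2 ratio of 4.11, PER3 3.73, BHLHE41 3.29, NR1D1 4.03, DN8846 (DBP) 3.04, DN1829 (NFIL3 family) −4.89 and CLOCK DN2765 −2.49. Of these 7, PER3 was farther from 0 than in control fish and the other 6 nearer. They were chosen by their control values, so this count is no test of a difference between the 2 comparisons. The median of the immediate-early list was −0.24 under ALAN and −0.53 in control fish. Under ALAN 3 of its members were called lower and 1 higher. At an unadjusted p under 0.05, 12 were lower and 1 higher there. The share of all features at that level under ALAN was not counted, so counts at that level here stand without a background share. The median of the activity-regulated synaptic list was −0.26 under ALAN and −0.23 in control fish, and 0 of its members were called under ALAN (at an unadjusted p under 0.05, 7 lower and 1 higher). Of 4 activity genes chosen after their values were seen, FOS had 0.06 under ALAN, with 49.2, 58.6 and 40.9 CPM by day and 65.1, 40.1, 59.5 and 42.4 CPM at night, EGR1 DN67897 had −0.25, NPAS4 DN12604 −0.55 and SCG2 DN8114 −0.20, and none of these 4 was called there. MANF had 0.34 and HSP90AA1 −0.39. The ALAN medians were 0.02 for the chaperone list and 0.08 for the endoplasmic reticulum stress list. For radial glia, microglia and vessels they were 0.17, 1.05 and 0.20, with 0, 0 and 1 members called higher. The radial glia and microglia sums overlapped between ALAN day and ALAN night brains. In the test of the difference between the 2 comparisons (interaction term of the edgeR fit) 0 features passed, the smallest adjusted p being 0.121, with 1278 features at an unadjusted p under 0.05.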

How the data were processed

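Messenger RNA libraries of 14 whole brains were sequenced and counted by the authors on a transcriptome assembled de novo. The deposited table holds expected counts, estimated counts per assembled gene that need not be whole (95.98% are not). The submitters' processing notes name Trimmomatic 0.39, Bowtie2 and RSEM without stating their use; how molecular identifiers were handled is not stated in the sources used here. Names come from the annotation that the authors made by orthologue search with eggNOG-mapper, version 2.1.7 per the file headers, which covers 79921 genes and names 18198 of the 21805 counted features. Its bit score, deposited for each match, rates the alignment to the best orthologue (median 536 over the counted features).

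Here expected counts were rounded, and features were kept by edgeR's filterByExpr (minimum count 10, minimum total 15). Library totals were scaled by TMM (factors 0.87 to 1.08). One quasi-likelihood model with 4 groups was fitted to all 14 libraries (edgeR 4.0.16, R 4.3.3; 10 residual degrees of freedom), since the groups then share an estimate of the spread, and control night was tested against control day. P-values were adjusted by the Benjamini-Hochberg method over 20782 features, and the threshold was 0.05. Standard errors were derived from each log2 ratio and its F statistic. The steps were tested on simulated data. The labels do not say which fish shared a colony, so p-values measure the spread between these fish only.

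The comparison and gene lists were chosen with earlier results of these data known. Named in the text are the 12 named features with the smallest p in each direction whose groups did not overlap. Every called member of a gene list and the member with the smallest p of a list with no call are also named. So are the 6 with the largest log2 ratio each way among called features of at least 100 CPM, and 6 unnamed features. Of features sharing a name with the 12 in each direction or with called list members, only some are given. Other features named are said to be chosen after their values were seen. Excluded were 3 stranded libraries, not analysed here. The alternatives were DESeq2 1.42.0 (with its own scaling), edgeR with DESeq2-type size factors, 2 other low-count filters, the 7 control libraries alone, each control library left out, the replicate block, counts summed by gene name, the mean log2 level of 3 tissue marker lists as covariates and, added after the data were seen, 2 libraries left out together.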

Additional observations from a re-analysis of the deposited data

Results flagged for a closer look

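Sets of 4 control night values, 174 in all, were checked by Dixon's test of the gap against the whole range. The sets were 1 for each called feature named in the text and 1 for each summed gene list. The check was for a brain that stood away from the other night brains. For independent, normally distributed values chance gives such a gap in about 1 of 20 sets, and it was found in 14. The sets come from the same 4 brains, so they are not independent.

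Control night replicate 3 was the highest night brain for CRY1 (48.06 CPM), CIPC (30.51 CPM) and DDIT4 (362.4 CPM), for DNAJB5 DN75560 (209.3 CPM) and for DN44657 (0.6065 CPM). Control night replicate 2 stood above the others for DNAJB1 DN9118 (13.01 CPM) and TECTB (1.401 CPM). Control night replicate 1 stood apart for MARCKSL1 DN4955 (1105 CPM), IER2 (14.73 CPM), KCTD17 DN518 (98.15 CPM) and DN1482 (2.657 CPM). Control night replicate 4 stood apart for KLF2 DN10687 (20.36 CPM), for the summed microglia and macrophage markers, where it was the lowest (863.5 CPM), and for the summed pituitary markers, where it was the highest (520.9 CPM).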

How the results depend on the processing

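The 430 calls (222 higher and 208 lower at night) became 1108 with DESeq2 (563 and 545), 191 with the 7 control libraries alone (83 and 108), 163 without control day replicate 1 and control night replicate 4 (81 and 82; added after the data were seen) and 158 with the 3 tissue covariates (80 and 78). Of the 430, 425, 180, 149 and 152 were called again in these 4 settings. With 1 control library left out, the calls ran from 216 (control day replicate 4) to 552 (control day replicate 2), from 93 to 319 for those higher at night and from 118 to 233 for those lower. Size factors, the 2 other filters and sums by gene name kept all 3 counts within 1.5 times. For deviations from the group means, same-numbered day and night brains had r of 0.045, −0.057 and −0.070. Day replicate 2 correlated best with night replicate 3 (0.109). With groups of 3 and 4 brains, such values cannot tell whether the numbers pair the fish. With the replicate block 85 features were called (46 and 39), and 82 of the 430 were called again. Of 140 called features named in the text, 58 kept their call in all 16 alternatives, 44 lost it in 5 or more, and the log2 ratio of DN1482 ran from −7.426 (without control night replicate 1) to 0.044 (without control day replicate 2). Calls of named features that end without 1 library are given beside their values. Calls that end in other alternatives are given for some features only. The cause was not tested.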
